A study of Mus musculus with 6 samples.

Results

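The genes described here are 10 vascular genes of newborn mouse brown fat: secreted angiogenic factors, the endothelial receptors they bind, and an endothelial adhesion molecule. They were taken by symbol from a table of 19241 genes from bulk sequencing of RNA of the entire interscapular brown fat depot. Each of the 10 symbols matched 1 row, and all 10 passed the filter on low values, an average of at least 0.5 FPKM (fragments per kilobase of transcript, scaled to library size) over the 6 libraries. The 3 WT libraries came from newborn mice labelled Fstl1-floxed. The 3 KO libraries came from newborn mice labelled Myf5-Fstl1 KO, in which the gene for the secreted protein follistatin-like 1 is removed from the lineage marked by Myf5, a source of skeletal muscle and of much interscapular brown fat. The Cre allele, strain, sex and number of animals behind a library are not given in the sources used here, so a p-value measures the spread between these libraries. The question is how the depot's vascular genes differ when this lineage lacks Fstl1.

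Brown fat is among the most densely vascularised tissues, and its vessels supply oxygen and fuel for heat production. Vascular endothelial growth factors bind tyrosine kinase receptors on endothelium and drive sprouting and survival. Angiopoietins act through a separate receptor, TEK (also called TIE2), and set vessel stability. Apelin is a peptide hormone secreted by sprouting endothelial cells and by adipocytes; its receptor, APLNR, couples to G proteins on endothelium and other cells.

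Of the 10 genes, 1 passed an adjusted p of 0.05 between KO and WT, and it was Apln, which was lower in KO. Fewer cells of a type and less RNA per cell cannot be told apart in bulk values. Over all 13331 tested genes 2.21% passed in either direction, 1.01% passed as lower and 1.21% as higher. The values of the groups did not overlap for 1 of the 10 genes, again Apln, against 24.9% of all tested genes. Of the other 9 genes, 6 had a lower and 3 a higher KO mean on the log scale, and for none of them did limma give an unadjusted p under 0.05, against 19.2% of all tested genes. The 10 genes were chosen with earlier results of these data known, so these counts are a description. The median log2 fold change of the 10 genes was −0.12, against 0.01 over all tested genes, and 0.04 against 0.14 when every library was scaled to 26 endothelial identity genes. Values given below on scaling to endothelial genes are therefore to be read against 0.14.

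Depth was alike among libraries: 13400000 to 14800000 reads, by an estimate from the spacing of small FPKM values. Fstl1 served as the check of the genotype: its KO mean was 12.4% of its WT mean, and no KO library exceeded 13.1 FPKM while no WT library lay under 54.4 FPKM. Xist lay between 44.8 and 85.5 FPKM in WT and between 0.05 and 0.92 FPKM in KO, and the Y-linked gene Ddx3y between 0 and 0.23 FPKM in WT and between 59.5 and 60.8 FPKM in KO. Sex and genotype thus cannot be told apart in any value given here. The brown fat identity of the samples was read from 10 adipocyte markers, of which Fabp4 (fatty acid binding) lay at 14000 to 17389 FPKM and Ucp1 (heat production) at 1695 to 6255 FPKM over the 6 libraries. Among those markers 6 were lower and 4 higher in KO. By limma, 2 of the 10 passed, Elovl3 and Plin1, both lower (1.01% of all tested genes passed as lower). Ucp1 lay at 4366 to 6255 FPKM in WT and 1695 to 3591.5 FPKM in KO, without overlap (limma, adjusted p 0.0804). Summed skeletal muscle markers reached 1305 to 1887 FPKM in WT and 1439 and 1732 FPKM in KO replicates 2 and 3, but 319 FPKM in KO replicate 1. Summed erythroid markers were at 2562 to 4183 FPKM in 5 libraries and at 11803 FPKM in WT replicate 3. Epidermal markers came to 1.61 to 2.38 FPKM, with 4 of 6 at 0 in at least 1 library.

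Apln, which encodes the apelin precursor, is shown first because it was the gene that differed. It lies on the X chromosome at chrX:48025146-48034853 (mm10, the GRCm38 assembly), on the minus strand. The 250 bases before its RefSeq start site, at chrX:48034854-48035103 in GRCm38.p6, are printed 5′ to 3′ on the gene's strand, with the letters GGGCGG, which the factor SP1 is known to bind, in capitals.
Apln: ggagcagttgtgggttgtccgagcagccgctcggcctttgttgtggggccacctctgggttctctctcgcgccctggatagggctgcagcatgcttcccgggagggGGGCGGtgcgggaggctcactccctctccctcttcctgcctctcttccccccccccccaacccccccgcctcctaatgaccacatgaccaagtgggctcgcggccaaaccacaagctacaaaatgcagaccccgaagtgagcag
This window is 65.2% G and C and holds GGGCGG 1 time, a motif present on either strand in 32.74% of 32851 RefSeq windows of the same length. The letters ACGTG and GCGTG, the core bound by hypoxia-inducible factors, are not in it on either strand; 16.57% and 28.16% of all windows hold them. RefSeq windows were matched for 6 of the 10 genes (Apln, Flt1, Kdr, Tek, Vegfa and Vegfb). These letters describe the reference genome, and no promoter was measured.

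WT replicates 1, 2 and 3 had 4.16, 5.11 and 7.05 FPKM of Apln. KO replicates 1, 2 and 3 had 0.77, 1.22 and 0.65 FPKM. Every WT library was thus well above every KO library, with WT replicate 3 the highest and KO replicate 3 the lowest. The means were 5.44 ± 1.47 FPKM in WT and 0.88 ± 0.301 FPKM in KO (SD, n = 3 each), and the KO mean was 16.2% of that of WT, a 6.18-fold difference in mean FPKM. On the log2(FPKM + 1) scale, which understates changes at such low levels, Apln fell by 1.76 with a standard error of 0.20 and a 95% interval from −2.22 to −1.31 (limma, adjusted p 0.00841). It had the 17th smallest p-value of 13331 genes. The exact permutation test on the FPKM gave 0.1, the smallest p that 3 against 3 can give (two-sided). From the estimated depth and a transcript of 3149 nt, the Apln values correspond to about 179 to 315 reads in WT and about 30 to 54.9 reads in KO, so the KO values are low but not at the limit of detection. The call held whichever library was left out, with log2 fold changes from −1.91 to −1.59 and a highest adjusted p of 0.0398.

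As an X-linked gene, Apln was set beside the other genes of its chromosome. Among 455 tested X-linked genes 7 were called lower and 5 higher, which is 2.64%, and their median log2 fold change was 0.02. Xist was the 1 X-linked gene with a larger fall than Apln. For Apln too, sex and genotype cannot be told apart. Adipocytes are a known source of apelin, and the 10 brown adipocyte markers summed to 21427 to 26929 FPKM in WT and 20432 to 22507 FPKM in KO, a sum made up mostly of Fabp4. The mean over these markers of the deviation of log2(FPKM + 1) from each gene's average did not overlap between the groups. It was 0.09 to 0.35 in WT and −0.46 to −0.06 in KO, with 6 of the markers lower in KO and 4 higher. Elovl3 (log2 fold change −2.34), Plin1 (−1.36) and Ucp1 (−1.08) differed most. The other markers lay between −0.33 (Lipe) and 0.52 (Ppargc1a), so this mean rests largely on those 3 genes. The part of the adipocyte markers in the Apln value was not tested. Without KO replicate 1, the library with few muscle transcripts, Apln had a log2 fold change of −1.73 (limma, adjusted p 0.0261).

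**Figure D1:**
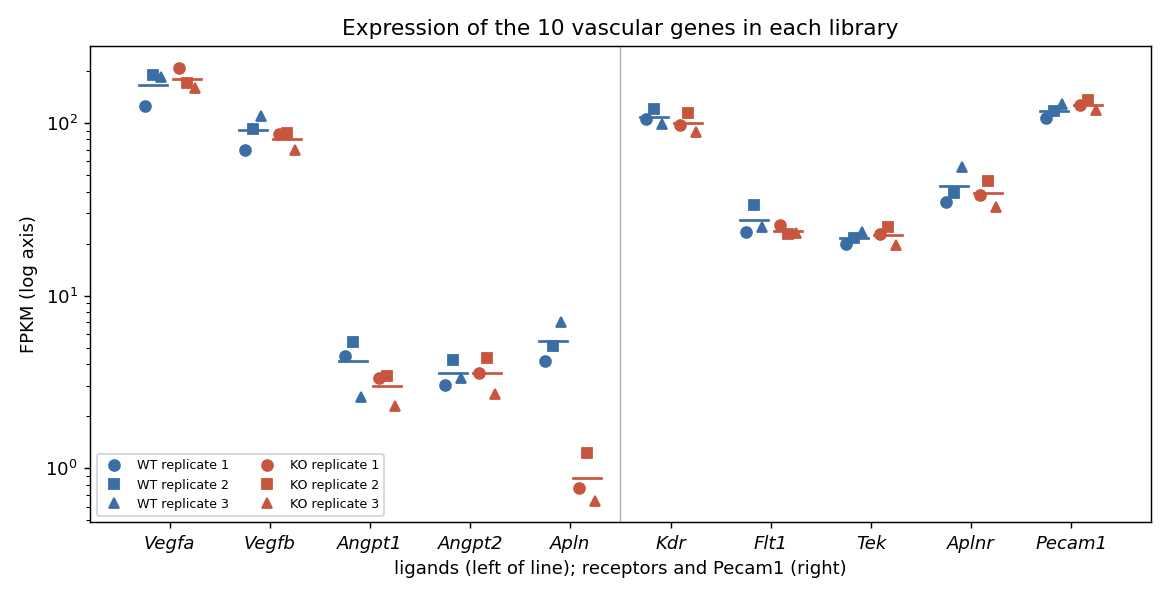
FPKM (log axis) of each of the 10 genes in each library, WT in blue and KO in red, with marker shape for the replicate and a short line at the group mean; ligands stand left of the grey line, receptors and Pecam1 right of it. The KO points of Apln, from 0.65 to 1.22 FPKM, lie under its WT points, from 4.16 to 7.05 FPKM, while the points of the other 9 genes overlap.

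Aplnr, the gene for the apelin receptor (chr2:85136360-85139923), did not pass the test. Its values by replicate number were 34.7, 39.1 and 55.7 FPKM across WT against 38.3, 46.2 and 32.4 FPKM across KO. The groups overlapped, with the highest value in WT replicate 3 and the lowest in KO replicate 3. Its log2 fold change, −0.13, had a 95% interval from −0.60 to 0.34 (limma, adjusted p 0.780), so the data leave room for a modest change of either sign. Aplnr turned to 0.02 on scaling to endothelial genes and to 0.06 without WT replicate 3.

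Read within a library, the ratio of Apln to Aplnr varied little in WT. Relative to its size, it varied more in KO. It was 0.120, 0.131 and 0.127 in the WT libraries and 0.0201, 0.0264 and 0.0201 in the KO libraries, in FPKM. WT replicate 3, the library with the most Apln, also had the most Aplnr, and its ratio lay between those of the other WT libraries. In KO replicate 2, the highest KO library for both genes, the ratio was the highest of the KO group. The log2 ratio of FPKM + 1 was −2.77 ± 0.0525 in WT and −4.41 ± 0.0681 in KO (SD, n = 3 each), a difference of −1.63 (exact permutation test, two-sided p 0.1, the smallest possible). At the low Apln values of KO, adding 1 narrows the spread of this log2 ratio. The ratio of Apln to Aplnr was chosen after the values were seen.

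**Figure D2:**
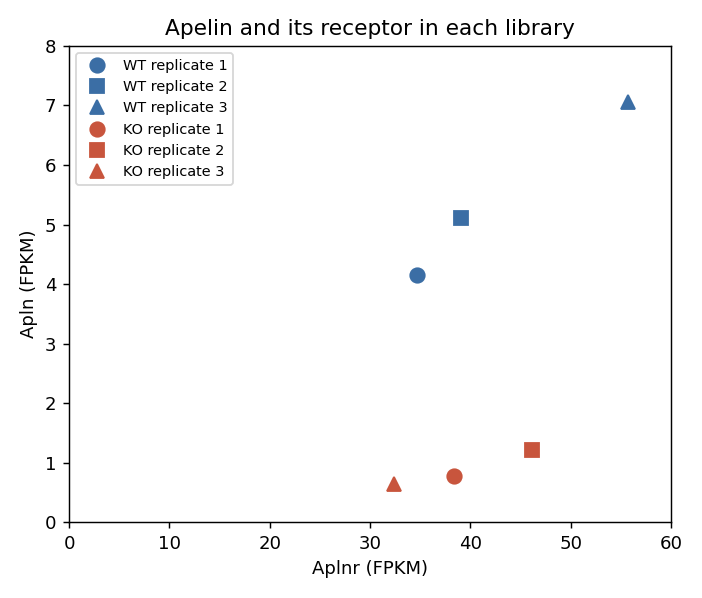
Apln FPKM (vertical) against Aplnr FPKM (horizontal) in each of the 6 libraries, WT in blue and KO in red, with both axes from 0. The groups share a range of Aplnr, 32.4 to 55.7 FPKM over the 6 libraries, and are separated by Apln.

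Other genes of apelin handling did not pass the test. In a list of 8 such genes, 7 were tested, 4 lower and 3 higher, with 0 called, 0 at an unadjusted limma p under 0.05 (19.2% of all tested genes) and a median log2 fold change of −0.11, which turned to 0.05 on scaling to endothelial genes. Apela, which encodes the other peptide ligand of the receptor, lay at 0 to 0.14 FPKM and was not tested. Arrb1, a beta-arrestin gene that had the smallest p of the list, was at 5.99, 5.93 and 5.87 FPKM across WT against 7.30, 6.82 and 7.05 FPKM across KO (limma, log2 fold change 0.22, adjusted p 0.408). The flow-responsive factor Klf4 (−0.24, adjusted p 0.572) and the second beta-arrestin gene Arrb2 (0.15, 0.687) came next by p-value.

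Vegfa, the principal endothelial growth factor gene, was the most abundant of the 10 genes in both groups. By replicate number it was at 125, 189 and 185 FPKM across WT against 209, 170.2 and 159 FPKM across KO. The highest and the second lowest value were both in KO, and WT replicate 1 was the lowest library, so the groups overlapped. The means were 166 ± 36.0 and 179 ± 26.0 FPKM (SD, n = 3 each). The log2 fold change was 0.12, with a 95% interval from −0.31 to 0.56 (limma, adjusted p 0.775), and −0.07 without WT replicate 1.

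Vegfb, whose product binds FLT1, was next among the ligands, at 69.7, 92.1 and 109.6 FPKM across WT against 86.4, 86.7 and 69.2 FPKM across KO. WT replicate 1 and KO replicate 3 were its lowest libraries and nearly equal. Its log2 fold change was −0.15 (95% interval −0.57 to 0.28; limma, adjusted p 0.724); it was 0.004 without WT replicate 3 and 0.01 on scaling to endothelial genes. The ratio of Vegfa to Vegfb was 1.79, 2.05 and 1.69 in WT and 2.42, 1.96 and 2.30 in KO. WT replicate 2 lay above KO replicate 2, so the ratios overlapped. The log2 ratio of FPKM + 1 differed by 0.27 between KO and WT (exact permutation test, two-sided p 0.2).

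Kdr encodes the main signalling receptor of VEGF-A. It was at 104.6, 119 and 98.4 FPKM across WT against 96.7, 114 and 88.6 FPKM across KO. Replicate 2 was the highest library in each group and KO replicate 3 the lowest of all. Its log2 fold change was −0.11 (95% interval −0.45 to 0.23; limma, adjusted p 0.733), and 0.05 on scaling to endothelial genes. It was −0.03 without either WT replicate 2 or KO replicate 3.

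Flt1 encodes a receptor that binds VEGF-A tightly and signals weakly. It was at 23.5, 33.4 and 24.96 FPKM across WT against 25.5, 22.8 and 23.0 FPKM across KO. WT replicate 2 stood above the other 5 libraries, which lay within 22.8 to 25.5 FPKM. Between the groups the log2 fold change was −0.18 (95% interval −0.55 to 0.19; limma, adjusted p 0.595). It was −0.03 without WT replicate 2 and −0.02 on scaling to endothelial genes.

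The remaining VEGF family genes included 1 that fell. Of 6 further ligand and receptor genes tested, 3 were lower and 3 higher, and 1 was called (2.21% of all tested genes). The median log2 fold change was −0.16, or −0.04 on scaling to endothelial genes. The called gene was Nrp1, which encodes neuropilin 1, a co-receptor of VEGF-A and of class 3 semaphorins. It was at 82.7, 86.1 and 73.9 FPKM across WT against 49.9, 42.5 and 39.7 FPKM across KO, without overlap (limma, log2 fold change −0.87, SE 0.14, adjusted p 0.0292). Nrp1 did not pass without WT replicate 2, WT replicate 3, KO replicate 2 or KO replicate 3, with adjusted p up to 0.139, nor on scaling to endothelial genes, where its log2 fold change was −0.71 (adjusted p 0.115). Nrp2, the related co-receptor gene, was at 19.5, 17.7 and 18.1 FPKM across WT against 14.5, 15.3 and 7.77 FPKM across KO (−0.58, adjusted p 0.220). Vegfd, a lymphatic growth factor gene, had a log2 fold change of 0.64 (adjusted p 0.156). Nrp1 is made by many cell types besides endothelium, so in bulk RNA its cellular source is not known.

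Angpt1, the gene for the activating ligand of TEK, was among the low members. It was at 4.49, 5.4 and 2.60 FPKM across WT against 3.31, 3.43 and 2.29 FPKM across KO. WT replicate 3 lay below 2 of the KO libraries. Angpt1 had a log2 fold change of −0.34, with a 95% interval from −0.86 to 0.19 (limma, adjusted p 0.465). It was −0.16 without WT replicate 2 and −0.58 without WT replicate 3, with −0.22 on scaling to endothelial genes.

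Angpt2, the gene for a ligand that can oppose angiopoietin 1 at the same receptor, was at 3.03, 4.26 and 3.33 FPKM across WT against 3.58, 4.37 and 2.69 FPKM across KO. The means were 3.54 ± 0.641 and 3.55 ± 0.840 FPKM (SD, n = 3 each). The log2 fold change was −0.01 (95% interval −0.43 to 0.42; limma, adjusted p 0.993), and its sign turned in 3 of 17 alternatives. The ratio of Angpt2 to Angpt1 was 0.675, 0.789 and 1.28 in WT and 1.08, 1.27 and 1.18 in KO. It was above 1 in each KO library and in 1 WT library, WT replicate 3. The log2 ratio of FPKM + 1 differed by 0.33 (exact permutation test, two-sided p 0.3), ranging from 0.19 without WT replicate 1 to 0.54 without WT replicate 3.

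Tek, the angiopoietin receptor gene, was at 19.96, 21.6 and 23.4 FPKM across WT against 22.7, 24.8 and 19.6 FPKM across KO. KO held both the highest and the lowest library. The log2 fold change was 0.04 (95% interval −0.29 to 0.37; limma, adjusted p 0.916), with −0.02 without WT replicate 1 and −0.03 without KO replicate 2. Around this axis, 6 further angiopoietin and TIE genes were tested; 4 were lower and 2 higher, with 0 called, 1 at an unadjusted limma p under 0.05 (19.2% of all tested genes) and a median of −0.07, or 0.08 on scaling to endothelial genes. Svep1, which encodes a large matrix protein, had the smallest p of them, with 14.4, 8.59 and 8.35 FPKM across WT against 17.8, 15.8 and 25.3 FPKM across KO (0.86, adjusted p 0.1004). It passed without WT replicate 1 (1.10, limma, adjusted p 0.0439) and in no other alternative. Over the fits without 1 library its log2 fold change ran from 0.67 to 1.10. Angptl1 (−0.31, 0.427) and the lipoprotein lipase inhibitor gene Angptl4 (−0.34, 0.653) followed; Angptl4 was −0.01 without KO replicate 1 and −0.83 without KO replicate 3.

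Pecam1 encodes a cell adhesion molecule at endothelial junctions and is widely used to mark vessels. It was at 107, 117 and 128 FPKM across WT against 126, 135 and 119 FPKM across KO. The log2 fold change was 0.11 (95% interval −0.19 to 0.42; limma, adjusted p 0.697); it was 0.05 without WT replicate 1 and 0.27 on scaling to endothelial genes. The groups overlapped, and over the 6 libraries Pecam1 spanned only 107.0 to 135 FPKM.

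**Figure D3:**
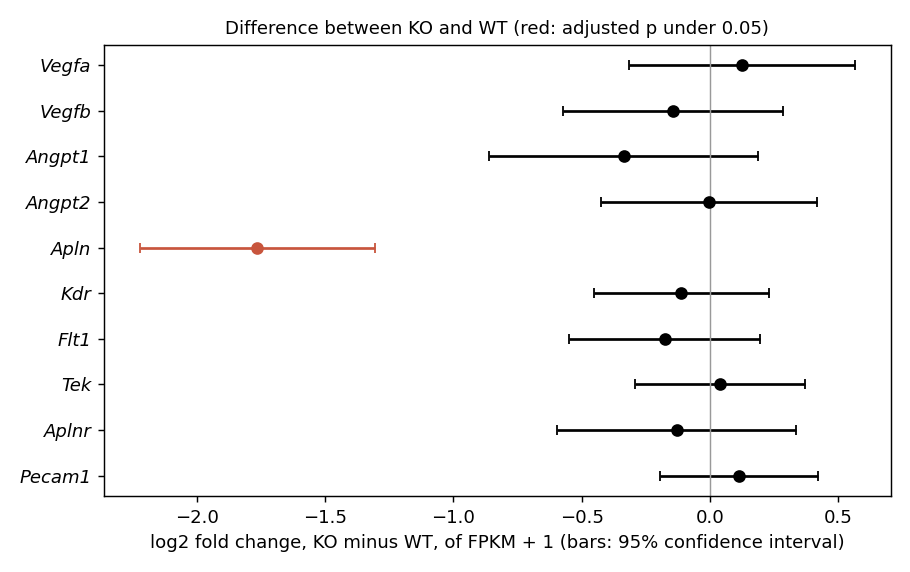
Log2 fold change, KO minus WT, of FPKM + 1 for each of the 10 genes, with 95% confidence intervals from limma; red marks an adjusted p under 0.05. The interval of Apln, from −2.22 to −1.31, lies away from 0, and the intervals of the other 9 genes include 0.

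Each gene was also set against Pecam1 of the same library, a family of 9 ratios. Apln lay at 0.0389, 0.0437 and 0.0553 of the Pecam1 FPKM in WT and at 0.00612, 0.00901 and 0.00548 in KO, without overlap; the log2 ratios of FPKM + 1 differed by −1.88. Tek held the steadiest share, 0.187, 0.185 and 0.183 of Pecam1 in WT and 0.180, 0.183 and 0.165 in KO. Its log2 ratios did not overlap either, yet they differed by only −0.07. The exact permutation test could not call any of the 9 ratios, whatever the values. With 3 against 3 its smallest possible p, 0.1, lies above the threshold even before adjustment. It gave 0.1 for both Apln and Tek, and 0.360 or more for all 9 after adjustment over the family. No conclusion is drawn from these p-values. The number of the 9 ratios without overlap rose to 5 without WT replicate 3 and to 4 without KO replicate 1 or KO replicate 2. The scaling to 26 endothelial identity genes gave a log2 fold change of −1.66 for Apln (limma, adjusted p 0.00925).

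FPKM are per length, so levels can be ordered between genes. In WT the order by mean was Vegfa, Pecam1, Kdr, Vegfb, Aplnr, Flt1, Tek, Apln, Angpt1 and Angpt2. Libraries of Vegfa and Pecam1, of Pecam1 and Kdr, of Kdr and Vegfb, of Apln and Angpt1, and of Angpt1 and Angpt2 had overlapping ranges in WT. Within single WT libraries, Vegfa was above Pecam1 in 3 of 3, and Pecam1 above Kdr, Kdr above Vegfb and Angpt1 above Angpt2 in 2 of 3 each. Apln was above Angpt1 in 1 of 3. In KO the first 7 places were the same, and Apln was last, after Angpt2 and Angpt1. Its highest KO library, at 1.22 FPKM, lay under the lowest KO library of Angpt1, at 2.29 FPKM. In KO the neighbours with overlapping ranges were Flt1 with Tek and Angpt2 with Angpt1; Flt1 was above Tek in 2 of 3 libraries and Angpt2 above Angpt1 in 3 of 3. Spread differed among the genes as well. Tek and Pecam1 had coefficients of variation of 7.85% and 8.79% in WT, while Angpt1 reached 34.3% in WT and Apln 34.1% in KO.

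The genes whose pattern over the 6 libraries lay nearest to that of Pecam1 were, among 8373 genes averaging at least 5 FPKM, Atp5c1, Gramd4 and Atp5h. Their root mean square distances on the log2 scale were 0.020, 0.028 and 0.032, against a median of 0.24 over all 8373. Nearest to Vegfa were Zfp524, Itpk1 and Esam, at 0.050, 0.059 and 0.064, against a median of 0.32. Esam encodes an endothelial adhesion molecule and was at 39.5, 54.2 and 57.4 FPKM across WT against 63.4, 53.0 and 52.9 FPKM across KO. Like Vegfa, Esam, Zfp524 and Itpk1 were each lowest in WT replicate 1 and highest in KO replicate 1. These genes were picked for their nearness, so such likeness and distances under the median follow from the choice.

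Beyond the 10 genes, 9 lists of vascular and hypoxia genes held 117 different tested genes, of which 8 were called, 6 lower and 2 higher. That is 6.84%, against 2.21% of all tested genes, and the groups did not overlap in 28.2% of them, against 24.9%. The lists were written with earlier results of these data known, so this share is a description. Nrp1 was 1 of the 8, and the others were Spry4, Adamts1, Unc5b, Higd1b, Cspg4, Pdpn and Kdm3a. Without a filter on low values none of the 8 passed (limma, adjusted p 0.0707 to 0.122). On scaling to endothelial genes Pdpn passed and the other 7 did not, with adjusted p from 0.0544 (Spry4) to 0.166 (Adamts1).

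Endothelial identity genes, 26 in number and all tested, gave 0 calls, with 20 lower and 6 higher, 6 at an unadjusted limma p under 0.05 (19.2% of all tested genes) and a median log2 fold change of −0.09, or 0.06 on scaling to the list itself. Summed over the list, WT libraries held 1989 to 2155 FPKM and KO libraries 1900.4 to 1998 FPKM. Cd36 alone made up a large part of these sums, at 1096, 980 and 755 FPKM across WT against 872, 876 and 1022 FPKM across KO. With each gene centred on its own average of log2(FPKM + 1) and weighted equally, library averages overlapped. They were −0.15 to 0.27 in WT and −0.17 to 0.03 in KO. The smallest p belonged to S1pr1, a sphingosine phosphate receptor gene, with 55.4, 73.4 and 63.1 FPKM across WT against 96.6, 105.8 and 79.5 FPKM across KO (0.55, adjusted p 0.121). In the other direction, Eng, which encodes the TGF-beta co-receptor endoglin, was at 47.3, 65.7 and 91.3 FPKM across WT against 39.4, 43.2 and 40.3 FPKM across KO (−0.67, adjusted p 0.145). Plvap, which encodes a protein of capillary fenestrae, was at 22.7, 27.6 and 36.6 FPKM across WT against 21.0, 18.8 and 18.5 FPKM across KO (−0.53, adjusted p 0.170). For Eng and Plvap, WT replicate 3 was the highest library and WT replicate 1 came close to the KO range. Eng passed without WT replicate 1 (−0.90, limma, adjusted p 0.0425) and in no other alternative. Without WT replicate 3 it was −0.44 (limma, adjusted p 0.294).

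**Figure D4:**
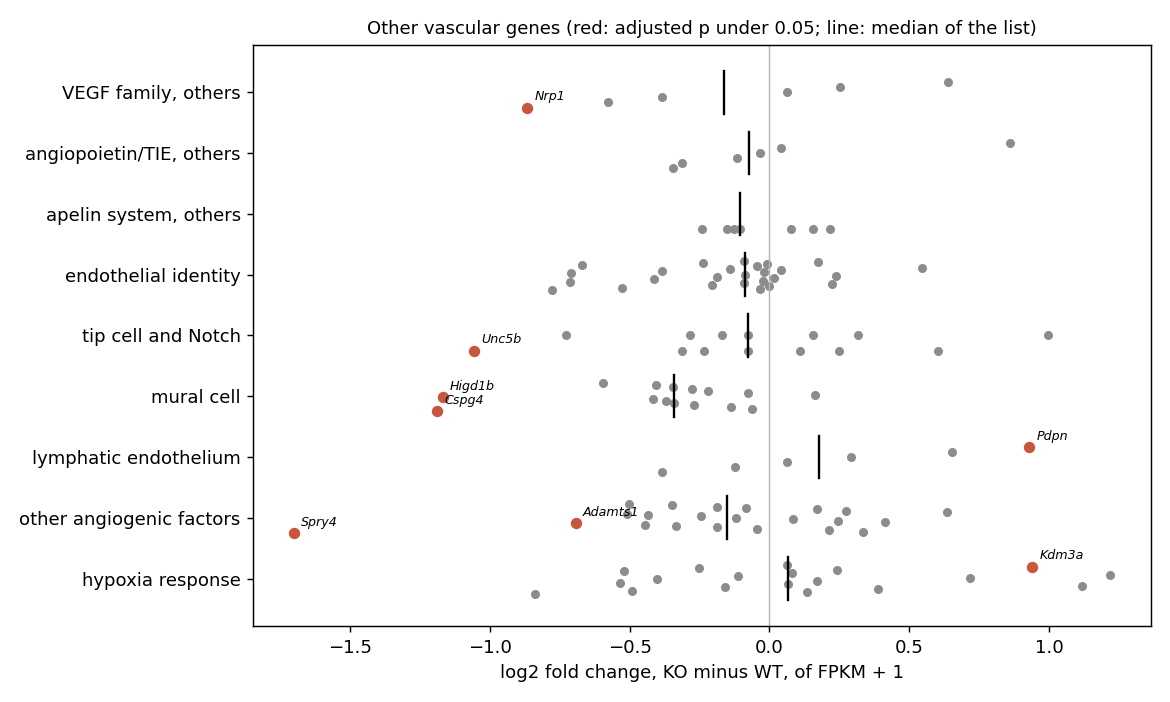
Log2 fold change, KO minus WT, of FPKM + 1 (horizontal) for each tested gene of the 9 lists (rows; vertical offsets within a row only separate points), with red and a name for an adjusted p under 0.05 and a black line at the list's median. Mural cell genes lie mostly left of 0, with a median of −0.34, and the called genes of the 9 lists number 6 to the left and 2 to the right.

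Mural cells, the pericytes and smooth muscle cells that wrap vessels, were covered by 15 tested genes, not all of them particular to these cells. In this list 14 genes were lower and 1 higher, while 6446 of all 13331 tested genes were lower. By limma 2 were called, both lower (1.01% of all tested genes passed as lower), and the median was −0.34. On scaling to endothelial genes 11 were lower and 4 higher, with a median of −0.20. Higd1b, a pericyte marker, was at 2.14, 3.57 and 2.57 FPKM across WT against 0.41, 0.57 and 1.04 FPKM across KO (limma, −1.17, SE 0.20, adjusted p 0.0318). Cspg4, which encodes the pericyte proteoglycan NG2 and is also made by other precursor cells, was at 4.64, 6.62 and 6.71 FPKM across WT against 3.36, 1.62 and 1.45 FPKM across KO (limma, −1.19, SE 0.24, adjusted p 0.0435). Acta2, the smooth muscle actin gene, was at 29.1, 41.8 and 41.8 FPKM across WT against 21.2, 28.4 and 23.5 FPKM across KO, without overlap (−0.60, adjusted p 0.132). The summed list ran from 261 to 323 FPKM in WT and from 225 to 269 FPKM in KO, and these ranges overlapped. When each gene was instead centred on its own average on the log2(FPKM + 1) scale and the genes were weighted equally, the library averages did not overlap: 0.01 to 0.32 in WT and −0.26 to −0.08 in KO. Higd1b lost the threshold without WT replicate 2, WT replicate 3, KO replicate 1 or KO replicate 2 (adjusted p up to 0.120) and Cspg4 without WT replicate 2, WT replicate 3, KO replicate 2 or KO replicate 3 (up to 0.183).

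Sprouting and Notch genes gave 1 call among 14 tested (2.21% of all tested genes were called). There were 8 lower and 6 higher, with a median of −0.08, or 0.06 on scaling to endothelial genes. Unc5b, a netrin receptor gene of tip cells and arteries, fell from 3.93, 4.58 and 5.43 FPKM in WT to 1.40, 2.58 and 1.28 FPKM in KO (limma, −1.06, SE 0.21, adjusted p 0.0417). It passed when KO replicate 2 was left out and in none of the other 5 fits without 1 library (adjusted p 0.0502 to 0.156). Hey2, a Notch target gene of arteries, was at 1.3, 1.1 and 0.82 FPKM across WT against 3.49, 1.91 and 4.35 FPKM across KO (0.997, adjusted p 0.0625). It passed without KO replicate 2 (1.25, limma, adjusted p 0.0385), but was 0.81 (limma, adjusted p 0.158) without KO replicate 3. Nid2, a basement membrane gene, had a log2 fold change of −0.73 (adjusted p 0.0674). Esm1, a tip cell marker, was listed at 0.10 FPKM or less in all libraries and was not tested.

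Among 22 tested genes for other angiogenic factors and inhibitors, 14 were lower and 8 higher, with a median of −0.15. By limma 2 were called, both lower (1.01% of all tested genes passed as lower). On scaling to endothelial genes 11 were lower and 11 higher, with a median of −0.0078. Spry4, which encodes a feedback inhibitor of receptor tyrosine kinase signalling, was at 31.5, 17.8 and 22.2 FPKM across WT against 8.14, 6.41 and 5.09 FPKM across KO (limma, −1.70, SE 0.23, adjusted p 0.0151). Adamts1, which encodes an extracellular protease with anti-angiogenic activity, was at 26.0, 25.1 and 25.7 FPKM across WT against 14.97, 16.98 and 14.5 FPKM across KO (limma, −0.69, SE 0.13, adjusted p 0.0406). Spry4 did not pass without WT replicate 3 or KO replicate 2 (up to 0.0780), and Adamts1 passed without WT replicate 1 and in none of the other 5 such fits (up to 0.163). Thbs1, the gene for the angiogenesis inhibitor thrombospondin 1, was at 16.7, 20.6 and 16.4 FPKM across WT against 33.2, 28.8 and 23.4 FPKM across KO (0.64, adjusted p 0.0913).

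Lymphatic genes gave 1 call among 6 tested (2.21% of all tested genes were called), with 2 lower and 4 higher. The median was 0.18, or 0.32 on scaling to endothelial genes (0.14 over all tested genes). Pdpn, the podoplanin gene, which fibroblasts and macrophages can also express, rose from 4.44, 5.49 and 5 FPKM in WT to 10.6, 11.6 and 9.03 FPKM in KO (limma, 0.93, SE 0.15, adjusted p 0.0276). Mmrn1 was at 1.78, 1.36 and 1.22 FPKM across WT against 3.11, 2.66 and 2.76 FPKM across KO (0.65, adjusted p 0.0626), and Vegfc had a log2 fold change of −0.38 (0.311). Prox1, the master regulator of lymphatic fate, lay at 0.31 to 0.56 FPKM and was not tested. Macrophage markers, 10 of 10 higher in KO with 0 called, summed to 124 to 182 FPKM in WT and 169 to 232 FPKM in KO; fibroblast and preadipocyte markers, 7 of 8 higher with 0 called, summed to 1064 to 1422 FPKM and 1155 to 1989 FPKM. Their part in the Pdpn value was not tested. Pdpn did not pass without WT replicate 2, WT replicate 3, KO replicate 1 or KO replicate 2 (adjusted p up to 0.0999).

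Hypoxia response genes, among which Vegfa and Apln are often counted, did not move one way. Of 19 tested, 8 were lower and 11 higher, and 10 had an unadjusted limma p under 0.05 (19.2% of all tested genes). By adjusted p 1 was called (2.21% of all tested genes). The median was 0.07, or 0.22 on scaling to endothelial genes (0.14 over all tested genes). Kdm3a, a histone demethylase gene, was at 17, 18.8 and 14.4 FPKM across WT against 28.9, 28.8 and 42.6 FPKM across KO (limma, 0.94, SE 0.19, adjusted p 0.0423); it did not pass in any of the 6 fits without 1 library (adjusted p up to 0.139). Bnip3, a mitophagy receptor gene, had a log2 fold change of 1.12 (adjusted p 0.0643) and passed with the filter at 5 FPKM (adjusted p 0.0456). Ddit4, which encodes an inhibitor of mTORC1, was at 26.8, 28.3 and 33.3 FPKM across WT against 46.4, 54.8 and 132 FPKM across KO (1.22, adjusted p 0.0990). While these 3 were higher in KO, the genes next by p-value were lower. They were Pgk1 (limma, −0.52, adjusted p 0.106), Ankrd37 (−0.84, 0.143), Egln1 (−0.49, 0.186) and Egln3 (−0.54, 0.188). After them by p-value, Arnt (limma, 0.39, adjusted p 0.197) and Adm (0.72, 0.227) were higher in KO again.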

How the data were processed

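Bulk RNA-seq libraries of the depot (3 WT, 3 KO, grouped by title) were compared. The deposited FPKM were made by the authors, per the file headers, and hold 2 decimals; the submitters' processing notes name HISAT2 2.0.4, Bowtie2 2.2.5, DESeq2 and mm10 without roles, and the quantifier, filters and strand handling are not given in the sources used here. No further scaling was applied. Log2(FPKM + 1) of genes averaging at least 0.5 FPKM was fitted with limma 3.58.1 in R 4.3.3 (KO against WT, eBayes with trend, no covariates), with Benjamini-Hochberg adjustment over 13331 genes, at 0.05. On simulated data of 13331 genes the fit recovered 84.5% of 200 genes changed by 1.5 (log2), with 6 false calls. Ratios within a library were tested by exact permutation.

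Depth was estimated from low values of single-transcript genes (GENCODE vM21 lengths less 25 nt): 81.18% to 84.39% of values lay within 0.2 of a whole read, against 46.15% to 49.68% with shuffled lengths. Only short, low genes gave such steps, so no count test was run. RefSeq (GRCm38.p6) gave positions for 99.8% of genes. The members and lists were chosen with earlier results of these data known. Named genes are the members, Fstl1, and from each list those called plus the 3 with the smallest p. Marker genes, genes listed near 0 and the hypoxia genes Pgk1, Ankrd37, Egln1, Egln3, Arnt and Adm were named after their values were seen.

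Alternatives were other pseudocounts (0.1, 0.01), filters (none, 5 FPKM), scalings, eBayes settings, the replicate block, removal of X and Y genes, and leaving out each library.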

Additional observations from a re-analysis of the deposited data

How the results depend on the processing

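The Apln call held in all 16 alternatives that kept the gene, with log2 fold changes from −2.63 (pseudocount 0.01) to −1.59 and limma adjusted p from 0.00357 (robust eBayes) to 0.0499 (no filter). The number of the 10 genes called was 0 with a filter at 5 FPKM and 0 without X and Y genes, since both remove Apln, and 1 in every other fit. The count of all called genes, 295, became 35 (17 lower, 18 higher) without a filter, 95 (25 lower, 70 higher) on scaling to endothelial genes and 31 to 370 when 1 library was left out. Leaving out WT replicates 1, 2 and 3 gave 370, 39 and 31, and leaving out KO replicates 1, 2 and 3 gave 121, 89 and 87. Each of these fits has 1 library fewer, and the cause of the differences in count was not tested. Lower genes were 134 of the 295, 23 of the 89, 26 of the 87 and 25 of the 95, but 198 of the 370 and 67 of the 121, and 154 of 294 with median-of-ratios and 153 of 301 with trimmed-mean scaling.

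Same-numbered libraries deviated together at correlations of 0.068, 0.043 and 0.043, too low to treat the numbers as pairs. Blocking on the replicate number called 167 genes (73 lower and 94 higher). Under it Apln had an adjusted p of 0.0174, and Adamts1 (0.0733), Cspg4 (0.0741), Kdm3a (0.0741) and Unc5b (0.0553) did not pass.

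Signs turned for genes that had not passed. On scaling to endothelial genes Angpt2 gave 0.115, Aplnr 0.025, Kdr 0.045 and Vegfb 0.011. Each of these lay under the median over all tested genes with that scaling, 0.139. Leaving out each library, Angpt2 ran from −0.134 to 0.137, Aplnr from −0.269 to 0.065, Tek from −0.035 to 0.128, Vegfa from −0.069 to 0.229 and Vegfb from −0.320 to 0.0036. The ratios without overlap among 9 ran from 2 to 5 without 1 library. With a pseudocount of 0.1, Apln against Aplnr differed by −2.38 and against Pecam1 by −2.62; without 1 library, Apln against Aplnr ran from −1.67 to −1.60. Without a filter Fstl1 had an adjusted p of 0.0606. At this depth, short transcripts under about 1 FPKM rest on few reads, while the longer Apln at 0.65 FPKM corresponds to about 30 reads.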
